A study of Mus musculus with 2 samples.

Results

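Costimulatory receptors and their B7 family ligands are described here across 2 culture media, as 10 genes picked by name from the 54532 gene identifiers of the count table: Cd28, Icos, Cd80, Cd86, Cd274, Pdcd1lg2, Cd83, Cd226, Cd96 and Cd48. The cells were primary CD8+ T cells taken from the spleens of wild-type (WT) mice that the labels call ND, an abbreviation they do not spell out. One culture was kept for 8 h in RPMI 1640 medium (complete medium) and 1 in RPMI 1640 methionine (-) medium (methionine-free), and 1 bulk RNA-seq library was made from each. The labels name both a whole-RNA and an mRNA library kit without tying either to a library, and give no age, sex, number of pooled mice or stimulus added to the cultures. The question the comparison addresses is how the transcripts of these surface molecules differed after culture without methionine.

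A T cell needs a signal beside that of its antigen receptor, and CD28, bound by CD80 or CD86 on an antigen-presenting cell, is the best known source of it. ICOS is a relative of CD28 that appears after activation, whereas CTLA-4 competes with CD28 for the same ligands and PD-1, bound by PD-L1 (Cd274) or PD-L2 (Pdcd1lg2), dampens the response. CD226, CD96 and TIGIT compete for the poliovirus receptor CD155, with CD226 activating and TIGIT inhibiting, and CD48 is a lipid-anchored ligand of CD2 and CD244. Activated T cells can also make CD80, CD86, PD-L1 and CD83, and these ligands then stand on the T cell surface.

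The libraries held 14646527 counts in complete medium and 19647681 in methionine-free medium, so that 1 count was worth 0.0681 and 0.0510 CPM (counts per 1000000 scaled counts). With a single library per medium, the differences have no replicate check, and the intervals given are 95% intervals for counting error, which leave out how far cultures or mice differ. All 9 markers of CD8 T cells and the T cell receptor complex were measured and none was 1.5-fold apart; Cd8a stood at 664 and 527 CPM. Of 3 markers of CD4 T cells, 2 were measured and neither was 1.5-fold apart. Cd4 had 9 and 11 counts. The other listed marker, Cd40lg, averaged under 10 counts, with 2 in complete medium and 16 in methionine-free medium. On these few counts Cd40lg was higher without methionine, and the interval of its ratio (1.41 to 53.8) lay above 1.

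Without methionine, 6 of the 10 genes were higher by 1.5-fold or more: Cd83, Cd226, Pdcd1lg2, Cd80, Cd274 and Cd86. None was lower by as much. Among the 13041 genes that averaged 10 counts or more (called measured below), 15.7% were that much higher and 18.0% that much lower. At 2-fold, 3 of the 10 were higher (Cd83, Cd226 and Pdcd1lg2) and none lower, against 5.80% and 9.29% of all genes. All 10 passed the count minimum. Their median log2 difference was 0.62, beside 0.04 for all genes. Cd274 and Cd86 lay just inside the 1.5-fold limit, at ratios of 1.55 and 1.53, and Icos just outside, at 1.44; the intervals of all 3 held 1.5. Of the 10 genes, 9 had a ratio above 1, as did 52.4% of all measured genes, whatever their intervals. Under TMM scaling the interval lay wholly above 1 for those 9, for Cd28 only just, and wholly below 1 for Cd48. For 3 genes it lay wholly above 1.5. The share of all measured genes with such intervals was not counted, so these interval counts are not read as particular to the 10 genes. In bulk RNA a lower level can come from fewer cells of a type or from less RNA per cell, and these cannot be told apart.

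**Figure D1:**
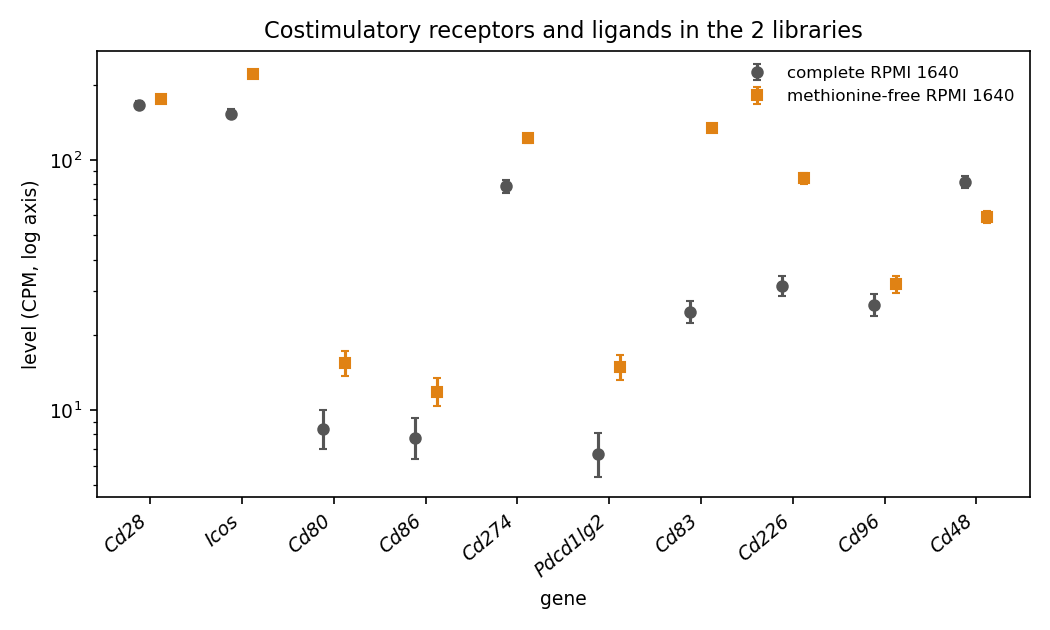
Level of each gene in CPM (log axis) in the complete-medium library (grey circles) and the methionine-free library (orange squares), 1 library each; bars are 95% Poisson counting intervals. Cd83 shows the widest gap, from 24.7 to 134 CPM, and Cd48 alone sits lower without methionine.

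The receptor Cd28 (ENSMUSG00000026012, chromosome 1, 60716800 to 60773359, plus strand, GRCm38) had 2441 counts in complete medium and 3437 in methionine-free medium, or 166 and 175 CPM. The 2 levels were close, at a ratio of 1.06 (1.002 to 1.11). Icos (ENSMUSG00000026009, chromosome 1, 60977927 to 61000320, plus strand) had 2249 and 4315 counts, or 153 and 220 CPM, a ratio of 1.44 (1.37 to 1.51). Both intervals lay above 1 under TMM scaling, that of Cd28 only just. With libraries scaled by total count, the Cd28 interval would hold 1. Per length, the ratio of Cd28 to Icos went from 0.61 to 0.45, a factor of 0.73 (0.68 to 0.79) that needs no scaling between libraries.

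Ctla4 lies between these genes on the chromosome, with its start 170 kb from that of Cd28, and Icos starts 261 kb from Cd28. The neighbours did not move alike. Ctla4 was 1.99-fold lower (1.91 to 2.08), with 5780 counts in complete medium and 3867 in methionine-free medium. The ratio of Cd28 to Ctla4 counts was 0.42 in complete medium and 0.89 in methionine-free medium, 2.10 times as large (1.97 to 2.25); per length, Ctla4 remained the higher of the pair in both libraries, at ratios of 0.16 and 0.34. Raph1, the only other protein-coding gene within 200 kb, had a ratio of 1.33 (1.1 to 1.61). Gm37039, an unclassified transcript on the same strand that overlaps Icos, had 9 and 29 counts.

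The ligands of CD28 and CTLA-4 were scarce. Cd80 (ENSMUSG00000075122, chromosome 16, 38455561 to 38496335, plus strand) had 123 counts in complete medium and 302 in methionine-free medium, or 8.38 and 15.4 CPM, a ratio of 1.84 (1.49 to 2.29). Cd86 (ENSMUSG00000022901, chromosome 16, 36603869 to 36666081, minus strand) had 114 and 232 counts, or 7.76 and 11.8 CPM, a ratio of 1.53 (1.21 to 1.93). Both were higher without methionine. The ratio of Cd80 to Cd86 counts was 1.08 and 1.30, and the interval of the change (0.88 to 1.66) held 1, so a shift between the ligands was not detectable at this depth.

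The PD-1 ligands lie side by side on chromosome 19, with starts 43.5 kb apart. Cd274 (ENSMUSG00000016496, 29367455 to 29388095, plus strand) had 1154 counts in complete medium and 2390 in methionine-free medium, or 78.6 and 122 CPM, a ratio of 1.55 (1.45 to 1.67). Pdcd1lg2 (ENSMUSG00000016498, 29410919 to 29471161, plus strand) had 98 and 291 counts, or 6.67 and 14.9 CPM, a ratio of 2.23 (1.76 to 2.83). Both were again higher, Pdcd1lg2 by more. Per length, Cd274 stood 6.38 times as high as Pdcd1lg2 in complete medium and 4.45 times in methionine-free medium, a change by a factor of 0.70 (0.54 to 0.89). Their receptor gene Pdcd1 had 96 and 102 counts, a ratio of 0.80 whose interval (0.60 to 1.06) held 1. Summed over Cd80, Cd86, Cd274 and Pdcd1lg2, the B7 ligands went from 101 to 164 CPM, a ratio of 1.62 (1.52 to 1.72), and most of those counts were Cd274.

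Around the PD-1 ligands, 4 of 7 measured protein-coding genes within 200 kb, themselves included, were higher by 1.5-fold or more and 1 was lower. The 4 were Jak2, Insl6 and the PD-1 ligands, for which the region was chosen. Over all measured genes the shares were 15.7% and 18.0%. Jak2, the kinase gene upstream of Cd274, had 1671 and 4944 counts, a ratio of 2.22 (2.10 to 2.35). Insl6, between them, was also higher but had only 12 and 34 counts. Plgrkt starts 65 bases from Cd274 on the opposite strand and had a ratio of 1.22 (1.06 to 1.42), lower than that of Cd274. Ermp1, on the far side of Pdcd1lg2, was the lower one, at a ratio of 0.53 (0.48 to 0.60). The antisense gene A930007I19Rik overlaps Pdcd1lg2 and had 7 and 21 counts, and without a known strand setting its reads and those of Pdcd1lg2 cannot be told apart.

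**Figure D2:**
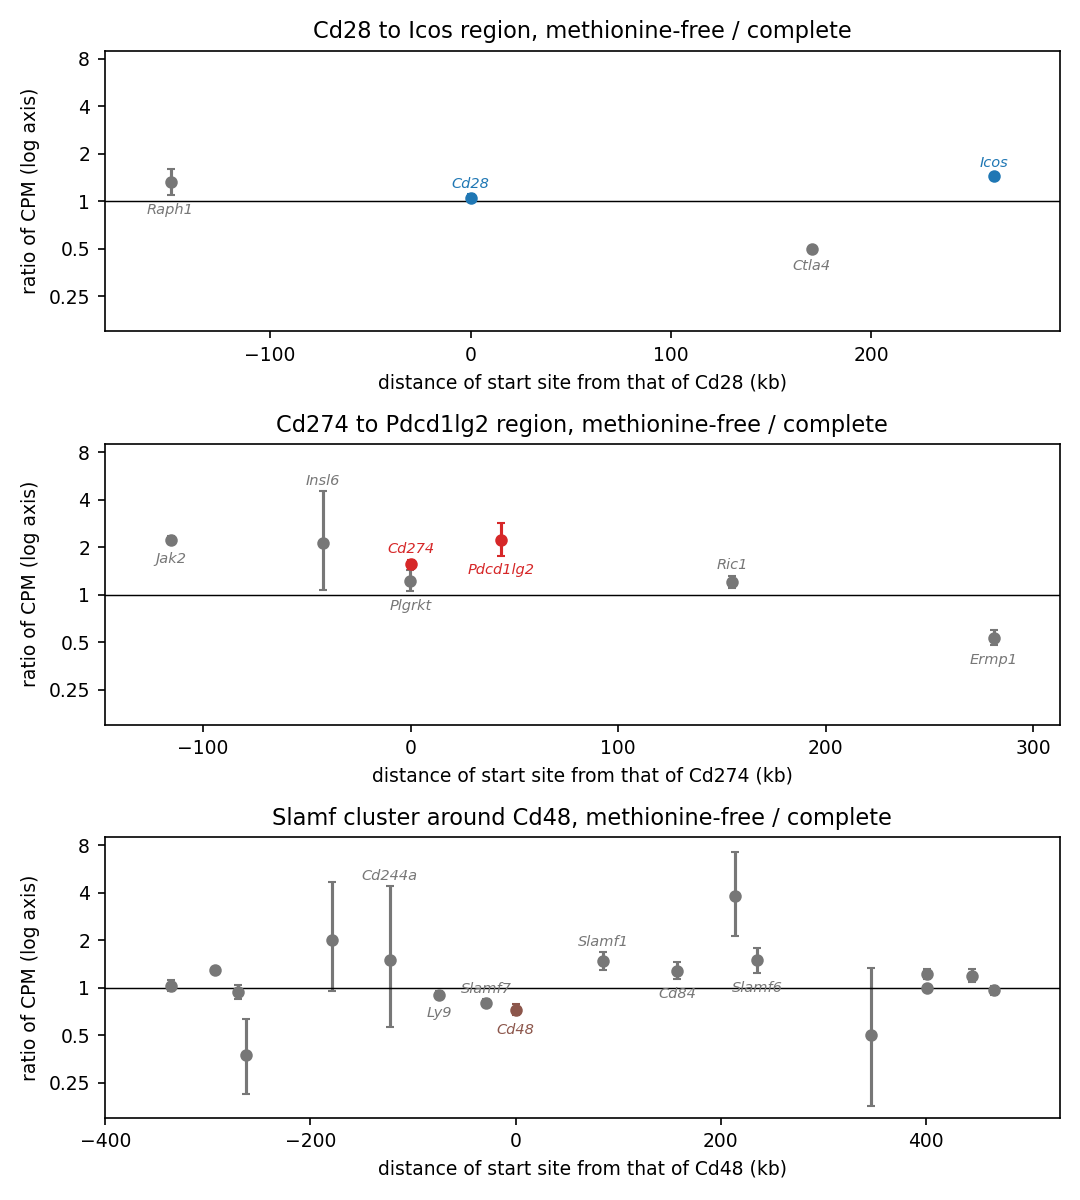
Ratio of CPM, methionine-free to complete medium (log axis), for measured protein-coding genes, against the distance in kb of each start site from that of Cd28 (top), Cd274 (middle) and Cd48 (bottom); bars are 95% counting intervals, coloured points are the genes described and grey points their neighbours, unnamed in the bottom panel where they are outside the Slamf family. Ctla4 lies below 1 between Cd28 and Icos, and Jak2, Cd274 and Pdcd1lg2 lie above 1.

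Promoter sequence from RefSeq (GRCm38.p6) was used for Cd80, Cd274, Pdcd1lg2, Cd96 and Cd48. The windows run from 250 bases before the RefSeq start to 50 after it, and 6 motifs were searched on both strands: a kappaB-like motif (GGGA, any 4 bases, then CC), the AP-1 motif (TGANTCA), an interferon response motif (GAAA, any 2 bases, then GAAA), the STAT motif (TTCNNNGAA), the cyclic AMP response element (TGACGTCA) and an ATF4 composite motif (TGATGNAA). The kappaB-like motif stood in the windows of Pdcd1lg2, Cd80 and Cd96, and in 20.7% of all 32851 promoter windows. The AP-1 motif stood in the Cd80 window and in 7.81% of all, and the STAT motif in the Cd96 window and in 8.30% of all. The windows of Cd274 and Cd48 held none of the 6, which says only that these letters are not in those windows. Of the 250 bases before the start, 185 for Cd274 and 239 for Cd48 lie in annotated exons of any gene. The interferon response motif, the cyclic AMP element and the ATF4 motif stood in none of the 5 windows, and in 3.44%, 1.79% and 3.97% of all. The 250 bases before the start are shown for the 3 genes with a match, 5′ to 3′ on the gene's strand, with matched bases in capitals. The Cd96 kappaB-like match, GGGACTTGCC, begins at base 8 of the transcript and is not in the part shown. The Cd80 window (chr16:38458683-38458932) ends 3372 bases inside the gene as GENCODE draws it and touches no annotated exon, whereas those of Pdcd1lg2 (chr19:29410669-29410918) and Cd96 (chr16:46120249-46120498, minus strand) end within 3 bases of the annotated start.
Pdcd1lg2: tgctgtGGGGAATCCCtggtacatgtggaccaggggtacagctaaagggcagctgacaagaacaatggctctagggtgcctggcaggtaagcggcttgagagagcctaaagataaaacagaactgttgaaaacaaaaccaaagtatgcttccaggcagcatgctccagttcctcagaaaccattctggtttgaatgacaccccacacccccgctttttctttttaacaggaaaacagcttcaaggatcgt
Cd80: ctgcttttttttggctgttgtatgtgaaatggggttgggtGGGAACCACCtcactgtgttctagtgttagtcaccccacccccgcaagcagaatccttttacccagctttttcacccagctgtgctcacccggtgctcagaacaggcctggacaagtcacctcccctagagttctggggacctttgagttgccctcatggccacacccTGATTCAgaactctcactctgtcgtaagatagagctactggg
Cd96: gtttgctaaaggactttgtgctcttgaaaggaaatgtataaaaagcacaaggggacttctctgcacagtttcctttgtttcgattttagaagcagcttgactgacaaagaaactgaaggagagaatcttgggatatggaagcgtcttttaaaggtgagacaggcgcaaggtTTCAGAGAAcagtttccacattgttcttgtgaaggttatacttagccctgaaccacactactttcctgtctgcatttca

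Cd83 encodes a surface molecule used as a marker of mature dendritic cells, which activated lymphocytes make too. The Cd83 gene (ENSMUSG00000015396, chromosome 13, 43784775 to 43803132, plus strand) had 363 counts in complete medium and 2628 in methionine-free medium, or 24.7 and 134 CPM. It was 5.43-fold higher without methionine (4.86 to 6.07), the largest ratio of the 10. Of the 13041 genes, 72 had a higher log2 difference.

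Because Cd80, Cd86, Pdcd1lg2 and Cd83 are also genes of antigen-presenting cells, markers of those cells were read in the same libraries. Of 18 dendritic cell and macrophage markers, 10 were measured, with 6 of these higher by 1.5-fold or more in methionine-free medium and none lower. Among all measured genes, 15.7% were that much higher and 18.0% that much lower. The summed level of the list went from 140 to 223 CPM. The 6 were Ciita, Zbtb46, Flt3, H2-Aa, Sirpa and Cd74, with ratios from 1.85 to 3.83. Zbtb46, a transcription factor gene of conventional dendritic cells, stood at 5.24 and 18.3 CPM, while H2-Ab1, a class II chain gene, was level at 22.9 and 22.7 CPM. The other measured markers, Cst3 with 720 and 1146 counts, Cd68 with 68 and 118 and Itgax with 8 and 16, had ratios of 1.19 (1.09 to 1.31), 1.30 (0.96 to 1.78) and 1.499 (0.61 to 4.05), short of the limit. The 8 markers under the count minimum were at or near 0: Lyz2 had 4 counts in each library, Csf1r 6 and 0, Adgre1 8 and 5, Xcr1 5 and 2, Fcer1g 6 and 1, Tyrobp 3 and 6, and Clec9a and Siglech 0 and 1. The part of such cells in the ligand and Cd83 differences was not tested. B cell markers went the other way, with 5 of 7 measured lower by 1.5-fold or more, none higher, and a summed level of 210 and 128 CPM, most of it Ighm. Of the 4 NK cell markers, 2 were measured, Klre1 and Eomes, and neither was 1.5-fold apart. Of 5 granulocyte markers, none passed the count minimum.

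**Figure D3:**
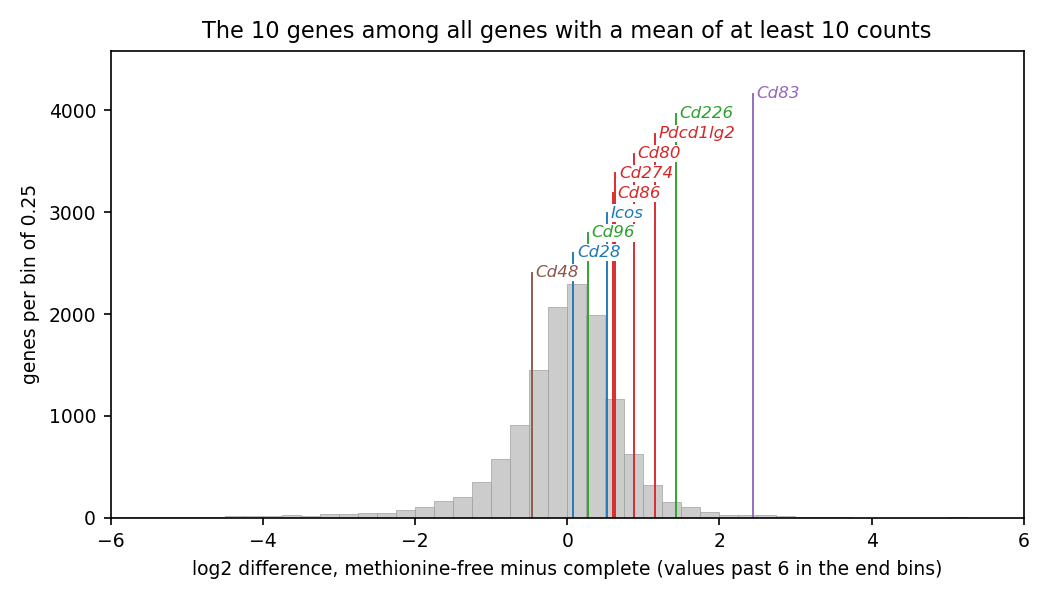
Histogram of the log2 difference, methionine-free minus complete medium, for the 13041 measured genes (grey bars, number of genes per bin of 0.25); coloured lines mark the 10 genes. Cd83 sits in the far right tail at 2.44, and 9 of the 10 lines lie right of 0, where 52.4% of all measured genes had a ratio above 1.

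Cd226 and Cd96, whose products bind CD155, differed in how far they stood apart between the media. Cd226 (ENSMUSG00000034028, chromosome 18, 89176967 to 89272229, plus strand) had 461 counts in complete medium and 1656 in methionine-free medium, or 31.4 and 84.5 CPM, a ratio of 2.69 (2.43 to 2.99). Cd96 (ENSMUSG00000022657, chromosome 16, 46035657 to 46120251, minus strand) had 388 and 625 counts, or 26.4 and 31.9 CPM, a ratio of 1.21 (1.06 to 1.37). Both were higher, Cd226 by more. Per length, Cd226 stood at 0.53 times Cd96 in complete medium and 1.18 times in methionine-free medium, a change by a factor of 2.23 (1.89 to 2.63).

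Tigit, the gene of the inhibitory receptor for the same ligand, was 3.55-fold lower (2.88 to 4.41), with 325 counts in complete medium and 122 in methionine-free medium. The ratio of Cd226 to Tigit counts was 1.42 in complete medium and 13.6 in methionine-free medium, 9.57 times as large (7.54 to 12.2), the widest shift of the 7 pairs compared. Per length, Tigit was the higher of the pair in complete medium (0.27) and Cd226 in methionine-free medium (2.55). Pvr, which encodes CD155 itself, was level, with 45.9 and 47.5 CPM and a ratio of 1.04 (0.94 to 1.14). Nectin2, another ligand of CD226 and TIGIT, had 3 and 2 counts, under the minimum. Of the 9 listed genes of the CD155 and nectin axis, 4 were measured; beside Tigit and Pvr these were Crtam, a receptor gene of activated T cells, at 1.66-fold higher (1.48 to 1.87), and Nectin1, higher on only 12 and 39 counts.

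**Figure D4:**
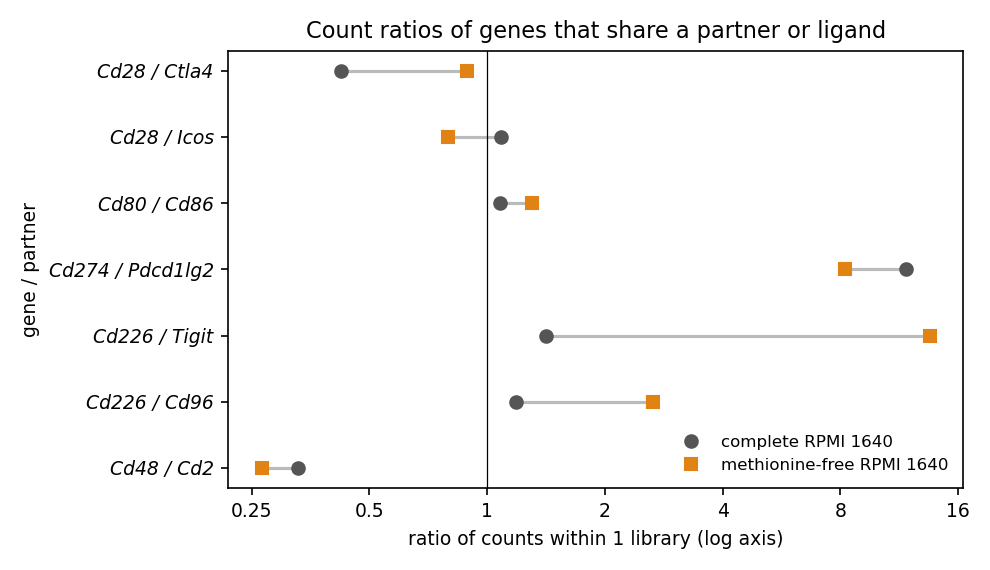
Ratio of the counts of 2 genes within 1 library (log axis) for 7 pairs whose products share a partner, a ligand or a gene family, in complete medium (grey circles) and methionine-free medium (orange squares). The Cd226 to Tigit ratio moves farthest, from 1.42 to 13.6, and the Cd28 to Ctla4 ratio goes from 0.42 to 0.89; gene length is not taken into account, so only the distance between the 2 points of a pair compares the media.

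Cd48 (ENSMUSG00000015355, chromosome 1, 171682009 to 171705258, plus strand) was the single gene of the 10 at a lower level without methionine, with 1202 and 1162 counts, or 81.8 and 59.3 CPM. It was 1.38-fold lower (1.27 to 1.497), short of the 1.5-fold limit. Cd2, the gene of its main receptor on T cells, had 248.9 and 223.6 CPM, a ratio of 0.90 (0.86 to 0.94). The ratio of Cd48 to Cd2 counts went from 0.33 to 0.27, a factor of 0.81 (0.73 to 0.88). Cd244a, the gene of the other CD48 receptor, had 7 and 14 counts, too few for a difference to be detectable.

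Cd48 belongs to the Slamf gene cluster, and none of the 8 measured genes of the CD2 and SLAM family list was 1.5-fold apart in either direction. Of the genes beside Cd48, Slamf7 and Ly9 on one side had ratios of 0.80 (0.76 to 0.85) and 0.90 (0.85 to 0.95). On the other side Slamf1, Cd84 and Slamf6 had ratios of 1.48 (1.29 to 1.68), 1.29 (1.13 to 1.46) and 1.49 (1.24 to 1.79). Slamf7 and Ly9 thus shared the lower direction of Cd48 and the genes on the other side did not. Sh2d1a, which encodes the SLAM adapter SAP, had a ratio of 0.81 (0.73 to 0.89). Over all 18 measured protein-coding genes of the cluster and its flanks of 200 kb, 2 were higher by 1.5-fold or more, 2 lower and 14 in between. Among all measured genes, 15.7% were that much higher and 18.0% that much lower. Cd244a overlaps Ly9 on the opposite strand. Gm37010, an unclassified transcript on the same strand as Cd48 and overlapping it, had 3 and 0 counts.

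Levels of different genes were compared per length, as CPM per kilobase of summed exon length. In complete medium the order was Cd48 at 68.8, Icos at 44.6, Cd28 at 27.1, Cd274 at 21.7, Cd96 at 12.1, Cd83 at 9.61, Cd226 at 6.42, Pdcd1lg2 at 3.40, Cd80 at 2.26 and Cd86 at 2.12. Only Cd80 and Cd86 had overlapping counting intervals there. In methionine-free medium Icos came first at 64.2, followed by Cd83 at 52.1 and Cd48 at 49.9, whose intervals overlapped, then Cd274 at 33.7, Cd28 at 28.7 and Cd226 at 17.3. Cd96 at 14.6, Pdcd1lg2 at 7.57, Cd80 at 4.16 and Cd86 at 3.23 were last. Cd83 thus moved from the sixth to the second place, from above 57.9% to above 92.2% of 11133 measured protein-coding genes. Cd80 and Cd86 stayed below the middle of those genes in both libraries, above 25.4% and 24.3% of them in complete medium and 36.8% and 31.9% in methionine-free medium.

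**Figure D5:**
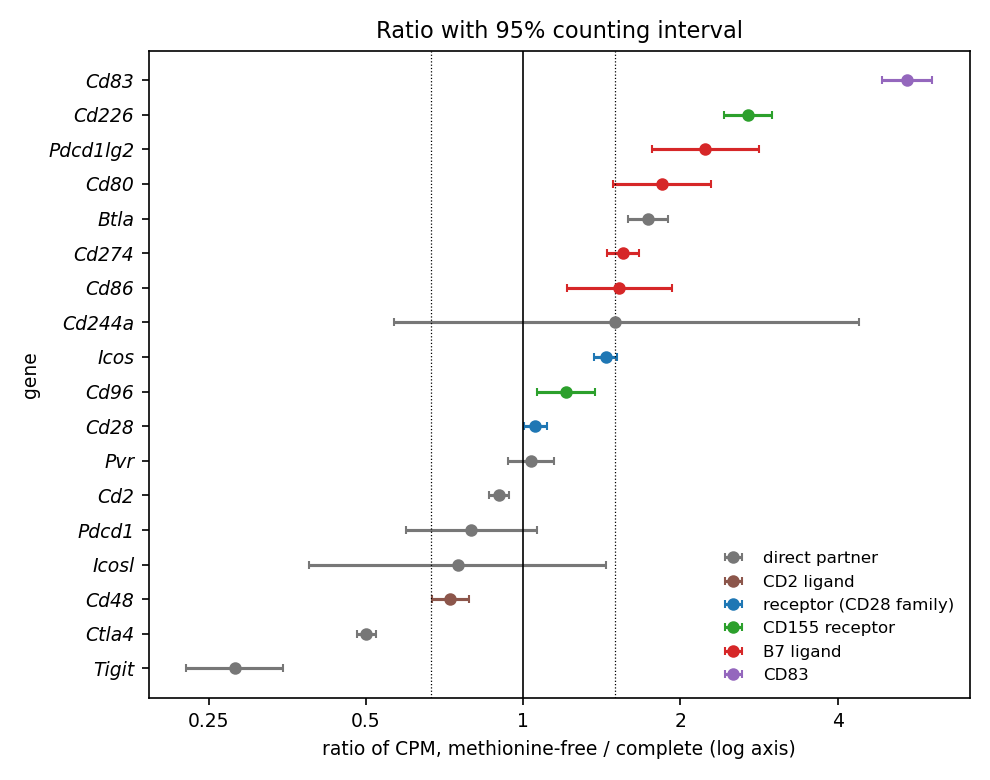
Ratio of CPM, methionine-free to complete medium (log axis), with 95% counting intervals for the 10 genes, coloured by role, and 8 direct partners in grey; dotted lines mark 1.5-fold. Cd83 is farthest right at 5.43, while the inhibitory receptor genes Tigit and Ctla4 are farthest left.

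Other genes of the CD28 and B7 families had a median log2 difference of -0.28. That of the 10 genes was 0.62 and that of all measured genes 0.04. Of 11 listed, 8 were measured, 1 was higher by 1.5-fold or more and 2 were lower, where 15.7% and 18.0% of all measured genes were. With 8 genes, these counts are not read as a difference from all genes. Btla, an inhibitory receptor gene, was the higher one, at 48.3 and 83.6 CPM and a ratio of 1.73 (1.59 to 1.89). The lower ones were Ctla4 and Rgmb, a gene of a PD-L2 binding protein, which had 55 and 46 counts. Icosl, the gene of the ICOS ligand, had 21 counts in each library, a ratio of 0.75 whose interval (0.39 to 1.44) held 1. Vsir, which encodes the inhibitory B7 relative VISTA, had 155 and 132 CPM. Cd276 and Vtcn1 had no counts in either library, which allows up to 0.204 and 0.153 CPM (a floor of 3 counts).

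Genes that act on the CD28 tail, among them kinases and adapters, moved in both directions in shares near those of all genes. Of 28 measured, 4 were higher by 1.5-fold or more and 5 lower, where 15.7% and 18.0% of all measured genes were, and the median log2 difference was 0.06, beside 0.04 for all genes. Among the higher ones were Grap, an adapter gene, at 2.24-fold (2.10 to 2.40), and Bcl10, an adapter gene of NF-kB signalling, at 1.84-fold (1.68 to 2.03). Among the lower ones Pik3r2, a PI3K regulatory subunit gene, was 2.49-fold lower (2.15 to 2.88). Pik3cd, which encodes the leukocyte PI3K catalytic subunit, went from 941 to 563 CPM, Akt1 from 257 to 154 CPM and Carmil2, which encodes a scaffold of CD28 signalling, from 144 to 87.1 CPM. The fifth, Flna, was 1.53-fold lower (1.48 to 1.59).

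Among transcription factor genes known to act on these ligands, with their regulators, 9 of 18 measured were higher by 1.5-fold or more and 2 lower. The shares over all measured genes were 15.7% and 18.0%. The median log2 difference of the list was 0.58, beside 0.04 for all measured genes. Of the 9, 8 encode NF-kB subunits or NF-kB regulators, while Nfkb1, Rela and Bcl3 of the same group had ratios of 1.24, 1.44 and 0.85. Rel, Nfkbia, Tnfaip3 and Nfkb2 had ratios of 2.68, 2.60, 2.54 and 2.40. Nfkbib and Nfkbiz, of the IkB family, had ratios of 1.85 and 1.81, and Batf, an AP-1 family gene, a ratio of 2.12 (1.88 to 2.40). The lower ones were Batf3, 2.89-fold lower (2.52 to 3.32), and Irf8, 1.64-fold lower (1.60 to 1.68). Irf1, which carries the interferon signal to Cd274, had a ratio of 1.13 (1.09 to 1.17).

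Among 9 genes whose products control the mRNA or protein turnover of these molecules, 3 were higher by 1.5-fold or more and 1 lower. Over all measured genes the shares were 15.7% and 18.0%. The median log2 difference of the 9 was 0.24, beside 0.04 for all measured genes. Rc3h1, which encodes Roquin-1, a repressor of Icos mRNA, had a ratio of 1.40 (1.30 to 1.49), and its paralog Rc3h2 one of 1.72 (1.58 to 1.87). Zc3h12a, which encodes the RNase Regnase-1, had a ratio of 1.73 (1.54 to 1.94). March1, whose ubiquitin ligase removes CD86 from the surface, was higher on 13 and 33 counts, and its interval held 1. Cmtm6, which keeps PD-L1 on the surface, stayed at 203 and 206 CPM, while its relative Cmtm4 was 2.11-fold lower (1.78 to 2.49).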

How the data were processed

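The table deposited by the authors holds raw counts per gene, whole numbers without scaling, for 1 bulk RNA-seq library per medium. The build, mm10, is named in and credited to the submitters' processing notes; aligner, counter, annotation release and use of strand were not given in the sources used here. Columns were matched to samples by title and description. Identifiers were matched to GENCODE M21 (GRCm38, the assembly of mm10): 54495 of 54532 matched, and all 10 genes described here were among them.

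Counts were scaled by TMM in edgeR 4.0.16 (R 4.3.3), with factors of 1.003 and 0.997. The log2 difference, methionine-free minus complete medium, used a prior of 0.5 counts scaled to library size and decided which genes were called at 1.5-fold or 2-fold, over the 13041 genes that averaged 10 counts or more. Printed ratios have no prior count. Their 95% intervals are exact conditional (Clopper-Pearson) intervals of the counts, and those of a level are exact Poisson intervals (scipy 1.17.1); all cover counting error only. With 1 library per medium there is no test across replicates and no p-value. The ratio and its counting interval were checked on simulated Poisson counts without variation between cultures. That check did not cover TMM scaling, the pair ratios, the lists or the sequence searches. Alternatives were the size factors of DESeq2 1.42.0, the total count, the upper quartile, a larger and a smaller prior count, and other count minimums.

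The 10 genes and all lists were chosen with earlier results of these data known. Of the other lists, genes at least 1.5-fold apart were named, at most 8 a list, along with 10 direct partners whatever their values. The rule did not cover genes named as neighbours, as markers or for an AU-rich match, nor Slamf1, Slamf6, Slamf7, Cd84, Ly9, Sh2d1a, Vsir, Cd276, Vtcn1, Flna, Nfkb1, Rela, Bcl3, Irf1, Irf8 and Cmtm6, which were named after their values were seen. Some genes that the rule covers are not reported here. Promoters came from RefSeq (GRCm38.p6), and windows of 5 of the 10 genes were used. Any window on chromosome 18, where Cd226 lies, was left out.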

Additional observations from a re-analysis of the deposited data

How the results depend on the processing

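With the size factors of DESeq2, the total count or the upper quartile in place of TMM, with a larger or smaller prior count, without a count minimum and with a minimum mean of 100 counts, all 70 alternative values of the 10 genes stayed within their counting intervals and none changed direction. The count minimum does not enter these values, and all 10 genes average over 100 counts, so changing it could not alter them. The counts of 6 higher and 0 lower genes at 1.5-fold, and of 3 and 0 at 2-fold, were the same under the 3 scalings. They were also the same under both minimums, which could not change them. The ratio of Cd86, nearest the limit, ranged from 1.52 to 1.54 over the scalings, and that of Cd274 from 1.54 to 1.56. The share of all genes at least 1.5-fold higher was 23.2% without a minimum and 12.2% at a minimum mean of 100 counts, and the share lower 29.9% and 13.7%. For the other lists, 6 of 60 alternative counts differed by over 1.5 times. Without a minimum, 2 other CD28 and B7 genes and 2 CD2 and SLAM genes were higher and 3 CD155 axis genes lower, at a minimum mean of 100 counts 1 CD28 and B7 gene was lower and 1 CD155 axis gene higher, and under the upper quartile 1 CD2 and SLAM gene was higher. Dividing by the longest transcript in place of the summed exon length moved 9 of 20 levels per length beyond their counting intervals, in complete and methionine-free medium 38.2 and 40.4 for Cd28, 47.2 and 67.9 for Icos and 3.06 and 4.66 for Cd86, and in methionine-free medium 4.86 for Cd80, 8.59 for Pdcd1lg2 and 18.8 for Cd226. Cd86 then passed Cd80 (2.64) in complete medium, and Cd28 passed Cd274 (33.7) in methionine-free medium. No paired analysis was possible because there is 1 library per medium. No library could be left out for the same reason, and Cd80, Cd86 and Pdcd1lg2, with at most 123 counts in complete medium, are the genes whose ratios depth limits most.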

Other observations

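An AU-rich heptamer bound by mRNA decay factors, TATTTAT, was counted in the 3′ untranslated region (UTR) of the GENCODE M21 principal transcript of each gene. It was present in 4 of the 10 genes, Cd28, Cd274, Pdcd1lg2 and Cd226, and in 28.4% of 11022 measured genes. Cd274 held 4 copies in 2683 bases, a number reached or passed by 1.25% of measured genes, whose median 3′ UTR was 1016 bases long. Cd28 held 2 copies and Pdcd1lg2 and Cd226 1 each. Cd83, the gene with the largest ratio, and Icos held none in 1447 and 2606 bases. Cd28, with 2 copies, had a ratio of 1.06, and Cd226, with 1, a ratio of 2.69. A link between the heptamer and the ratios was not tested. The first match is shown with its flanks for the neighbouring PD-1 ligand genes only, with the heptamer in capitals.
Cd274: gtgccttcTATTTATtttgagtc
Pdcd1lg2: aatagagtTATTTATagccctca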
